A study of Mus musculus with 24 samples.

Results

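The genes described here are those of the mouse mitochondrial genome, taken as every gene symbol of the count tables that begins with mt-. There were 37 of them among 54658 symbols: 13 protein-coding genes, 2 rRNA genes and 22 tRNA genes. Their counts were followed in 24 RNA-seq libraries, in which mice with peritonitis had received β-nicotinamide mononucleotide (β-NMN, a precursor of NAD+) or vehicle. In peritoneal cells, where 51.6% of all genes tested were called and 23.7% were called higher after β-NMN, 11 of the 13 protein-coding genes were called higher and neither rRNA gene was called. In hearts and lungs no mitochondrial gene was called, as 0% of all genes tested were in either organ, and the direction in hearts was not stable to leaving out single libraries. For 6 of the protein-coding genes few reads were counted in every tissue beside the other 7. Among these 6 are mt-Co2, mt-Atp6, mt-Co3 and mt-Nd4l, which were called higher in peritoneal cells.

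The mitochondrial genome is a small circle that encodes part of the respiratory chain, with the rRNAs and tRNAs needed to translate it. Both strands are transcribed as long precursors, in which tRNAs lie between most of the genes, and cutting at the tRNAs releases the mRNAs and rRNAs. The encoded proteins are subunits of complex I (the mt-Nd genes), complex III (mt-Cytb), complex IV (the mt-Co genes) and complex V (the mt-Atp genes), and they assemble with many subunits encoded in the nucleus. Heart muscle is among the tissues richest in mitochondria.

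All mice were male C57BL/6 animals of 7 to 12 weeks. Vehicle was 0.9% saline, and β-NMN was given intraperitoneally at 185 mg/kg/day, starting at the induction of peritonitis and last given 24 h before killing. In the sterile model, mice had received 1 mL of 4% thioglycollate medium (TGC), and cells of the peritoneal lavage were then cultured for 6 h with Escherichia coli at 15 bacteria per cell (6 vehicle and 6 β-NMN mice). In the septic model, caecal ligation and puncture (CLP), hearts and lungs were taken from the same animals (3 vehicle and 3 β-NMN mice). These organs were taken 24 h after surgery, following a single dose of β-NMN or vehicle, whereas the TGC mice had received repeated daily doses. All peritoneal libraries came from stimulated cells and all organ libraries from mice with CLP, so β-NMN was compared with vehicle within those states, without unstimulated or sham libraries. The libraries were made from pieces of organ or from unsorted lavage cells, for which the supernatant of the culture was removed before lysis, so cells not attached by then may be missing. The source field of the CLP organs names thioglycollate, whereas their titles and tissue fields give CLP, which was followed here.

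Total counts were 31126823 to 112456050 in peritoneal libraries, 27319513 to 68523239 in hearts and 8915366 to 28356786 in lungs. Defining markers fitted the labelled tissues: 8 cardiomyocyte genes summed to at least 31551 CPM (counts scaled to a common library size, with TMM factors, trimmed means of ratios between libraries) in hearts and at most 429 CPM in lungs, 4 alveolar type 2 genes to at least 21474 CPM in lungs, and 5 macrophage genes to at least 1902 CPM in peritoneal cells. The organs of vehicle mouse 2 stood apart. Across genes, the SD of the log2 difference from the other libraries of the tissue was 1.36 for its lung and 0.37 to 0.52 for the other lungs, and 0.84 for its heart and 0.26 to 0.37 for the other hearts. The main organ values of the mitochondrial genes are therefore given with and without this mouse.

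The 13 protein-coding genes did not yield counts in proportion to their length. In peritoneal cells, 7 of them (mt-Nd1, mt-Nd2, mt-Co1, mt-Nd4, mt-Nd5, mt-Nd6 and mt-Cytb) had levels of 144 to 2862 CPM per kilobase over all libraries, whereas the other 6 (mt-Co2, mt-Atp8, mt-Atp6, mt-Co3, mt-Nd3 and mt-Nd4l) had 0.307 to 11.4 CPM per kilobase. In hearts the ranges were 4504 to 63198 CPM per kilobase for the 7 genes and 0 to 7.54 for the 6. In lungs they were 122 to 1516 and 0 to 2.08 CPM per kilobase. The 6 genes lie next to each other on the mitochondrial genome, from mt-Co2 (complex IV) to mt-Nd4l (complex I). Together they gave 0.139% to 0.272% of the protein-coding mitochondrial counts in peritoneal cells, 0.00259% to 0.0037% in hearts and 0.00598% to 0.0323% in lungs.

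Sequence shared with the nuclear genome followed nearly the same division. Every stretch of 150 bases, the read length the methods give, was looked up in all annotated nuclear transcripts of GENCODE M21 (mouse build GRCm38, the build called mm10 by the authors). Of the stretches in mt-Co2, 99.4% were also present in a nuclear transcript, and the values were 99.4% for mt-Atp6, 99.8% for mt-Co3, 97% for mt-Nd3 and 98% for mt-Nd4l. The share was 59.2% for mt-Nd4 and 23.6% for mt-Co1, and it was 0% for mt-Nd1, mt-Nd2, mt-Nd5, mt-Nd6, mt-Cytb and both rRNA genes. mt-Atp8 had few counts too, with 0% of its 55 stretches shared with an annotated transcript. It lies between mt-Co2 and mt-Atp6, whose copies Gm28661 and Gm10925 are at chr1:24614885-24615565 and chr1:24613974-24614651. Sequence outside annotated transcripts was not searched, so whether mt-Atp8 has a copy between them is not known here. The nuclear copies with the most shared stretches are unprocessed pseudogenes on the minus strand of chromosome 1, between 24611535 and 24616197. The sources used here do not say how reads that map equally well to several places were counted, and the part of that setting in the low counts was not tested.

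The start of mt-Co2 (chrM:7013-7162, plus strand) is shown because its whole 150 bases occur unchanged in the pseudogene Gm28661 (chr1:24615416-24615565, minus strand). Over the 681 bases of that copy the identity was 100%. All sequences below were read from GENCODE M21 transcripts and run 5′ to 3′.
mt-Co2 and Gm28661: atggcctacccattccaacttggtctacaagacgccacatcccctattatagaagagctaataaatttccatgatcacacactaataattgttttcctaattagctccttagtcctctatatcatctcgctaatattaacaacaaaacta

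Only the last part of mt-Co1, from base 1054 of the gene to its end at base 1545, has a counterpart in Gm29216. The first 50 bases of that part are shown with the differing bases in capitals (chrM:6381-6430, plus strand, and chr1:24616148-24616197, minus strand), because this is where the gene turns from unshared to shared sequence. Counted from 1 at the first base of mt-Co1, the 6 differences were T1056A, C1057T, A1059G, A1060G, C1062A and A1066T.
mt-Co1: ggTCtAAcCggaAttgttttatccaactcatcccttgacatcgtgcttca
Gm29216: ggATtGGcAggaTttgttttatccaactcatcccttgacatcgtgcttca

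mt-Nd3 differed from its copy Gm28438 at 1 of 345 bases, T3C, counted from the first base of mt-Nd3 (chrM:9459-9508, plus strand, and chr1:24613070-24613119, minus strand).
mt-Nd3: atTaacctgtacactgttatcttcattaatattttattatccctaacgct
Gm28438: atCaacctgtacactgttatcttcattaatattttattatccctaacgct

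Few reads were counted on these pseudogenes as well. In hearts, mt-Co2 had 36 to 117 counts and Gm28661 174 to 417, beside 1914623 to 6296922 counts for mt-Co1. In peritoneal cells, mt-Co2 had 154 to 675 counts and Gm28661 236 to 993. Relative to all protein-coding mitochondrial counts, mt-Co2 was highest in peritoneal cells, with 0.0511% to 0.116%, beside 0.000545% to 0.000921% in hearts. The tables do not tell whether a read in a shared stretch came from the mitochondrial or the nuclear copy.

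**Figure D1:**
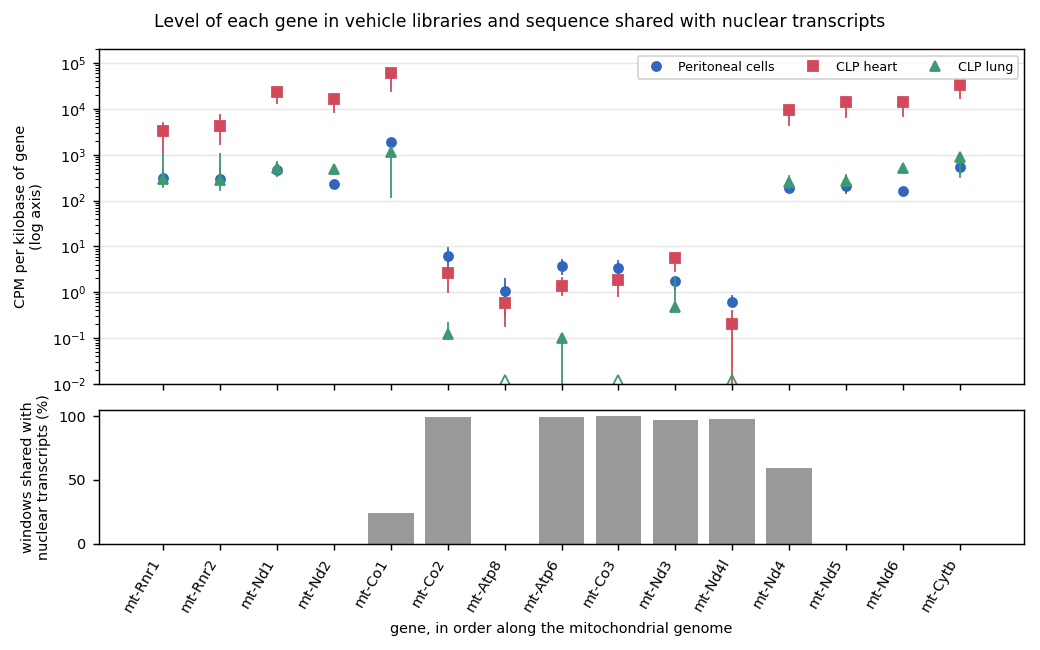
Level of the 13 protein-coding and 2 rRNA genes in vehicle libraries, as CPM per kilobase on a log axis (symbol, median; line, lowest to highest; open symbols at the bottom, median of 0), above the percent of 150-base stretches found in annotated nuclear transcripts. The genes from mt-Co2 to mt-Nd4l lie below 11.4 CPM per kilobase in every tissue, and 5 of these 6 share at least 97% of their stretches.

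Some neighbours overlap, and reads from the shared bases cannot be told apart. mt-Atp8 and mt-Atp6 share 43 bases, mt-Nd4l and mt-Nd4 share 7, and mt-Nd5 and mt-Nd6, which lie on opposite strands, share 14. The sources used here do not say whether counting used the strand. mt-Nd6 is the only protein-coding gene on the minus strand, and without strand its reads cannot be told apart from antisense RNA at the same place.

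Of the 22 tRNA genes, 8 had no count in any library. A further 13 had at most 283 counts in any library, with mt-Tc highest among them. The exception was mt-Tp, the proline tRNA gene, with 35 to 10032 counts per library. It is shown because it was the only tRNA gene that passed the filter on low counts in all 3 tissues (chrM:15356-15422, minus strand).
mt-Tp: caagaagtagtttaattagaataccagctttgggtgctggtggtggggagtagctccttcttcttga

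Counts of mt-Tp are reads that overlap 67 bases, shorter than the read length, in libraries made from poly(A) RNA. They therefore cannot be taken as mature tRNA.

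The share of all counts on mitochondrial genes differed widely between tissues. In vehicle-treated mice it was 0.504% to 0.653% in peritoneal cells (median 0.577%, n = 6). It was 22.1%, 12.9% and 22.6% in the 3 vehicle hearts, and 0.667%, 0.407% and 0.547% in the 3 vehicle lungs. After β-NMN it was 0.599% to 0.886% in peritoneal cells (median 0.792%, n = 6), 18.2%, 20.6% and 22.7% in hearts, and 0.601%, 0.72% and 0.757% in lungs. In peritoneal cells 5 of the 6 β-NMN libraries lay above every vehicle library, and β-NMN replicate 6 (0.599%) lay inside the vehicle range. In hearts and lungs the groups overlapped. In bulk samples like these, fewer cells of a type and less RNA per cell cannot be told apart.

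**Figure D2:**
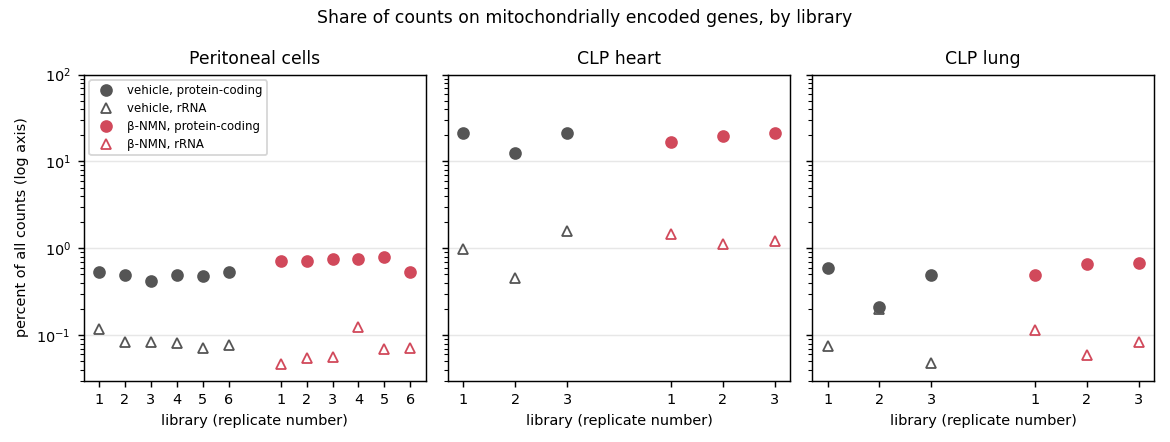
Percent of all counts on protein-coding (filled circles) and rRNA (open triangles) mitochondrial genes in each library, on a log axis, for vehicle (grey) and β-NMN (red). Protein-coding shares in peritoneal cells are higher in 5 of 6 β-NMN libraries than in any vehicle library, and the lung of vehicle mouse 2 has nearly equal shares of both classes.

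In peritoneal cells the mean share of protein-coding genes was higher and that of rRNA genes lower after β-NMN. The share of counts on protein-coding genes was 0.492% ± 0.0424 in vehicle and 0.709% ± 0.0952 in β-NMN libraries (mean ± SD, n = 6 each). The share on rRNA genes was 0.0856% ± 0.016 and 0.0708% ± 0.0283. The rRNA difference of -0.0148 percentage points was smaller than the SD of either group, and it was -0.0256 without β-NMN replicate 4 and -0.00846 without vehicle replicate 1. The ratio of protein-coding to rRNA counts was 4.57, 5.91, 5.05, 6.16, 6.67 and 6.84 in the vehicle libraries, and 15, 13, 13.4, 6.06, 11.4 and 7.32 in the β-NMN libraries. β-NMN replicate 4, at 6.06, was the only β-NMN library inside the vehicle range. The libraries were made from poly(A) RNA, and mitochondrial rRNAs carry only short tails.

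Gene by gene, β-NMN was compared with vehicle in peritoneal cells with edgeR's quasi-likelihood test, which over all 14985 genes tested called 51.6% (adjusted p below 0.05), 23.7% higher and 27.9% lower. Of the 13 protein-coding mitochondrial genes, all of which passed the filter on low counts, 11 were called higher and 0 lower. Their median log2 fold change was 0.60, beside -0.022 over all genes tested. The CPM of the groups did not overlap, with β-NMN higher, for 9 of the 13, where this held for 12.6% of all genes tested. mt-Tp rose, and mt-Rnr1 and mt-Rnr2 were not called.

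Among complex I genes, mt-Nd1 had 420 CPM in the lowest, 452 in the median and 556 in the highest vehicle library, and 613, 769 and 867 CPM after β-NMN. The groups did not overlap, and the log2 fold change was 0.69 ± 0.099 (SE, adjusted p = 4.7e-05). For mt-Nd4 the lowest, median and highest were 214, 260 and 286 CPM in vehicle and 325, 436 and 506 CPM in β-NMN libraries, again without overlap (log2 fold change 0.76 ± 0.109, adjusted p = 4.9e-05). mt-Nd4 encodes a subunit of the proton-pumping membrane arm of complex I. mt-Nd2, mt-Nd5 and mt-Nd6 also rose without overlap, by log2 fold changes of 0.63, 0.56 and 0.53 with adjusted p from 0.00011 to 0.00032. The vehicle range of mt-Nd6, the gene of the opposite strand, was narrow (78.7 to 86.5 CPM) and its β-NMN range was 97.7 to 135 CPM. Of the complex I genes with few counts, mt-Nd4l rose (0.98 ± 0.25, adjusted p = 0.0042) from 5 to 25 counts per vehicle library to 12 to 35. Its call was lost without the filter on low counts (adjusted p = 0.10) and within either class of sequencing depth described below (adjusted p = 0.099 and 0.12). mt-Nd3 had a log2 fold change of 0.25 ± 0.262 and was not called (adjusted p = 0.45).

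mt-Cytb, the only mitochondrial gene of complex III, had 490, 617 and 706 CPM (lowest, median, highest) in vehicle and 745, 888 and 1025 CPM in β-NMN libraries. The groups did not overlap and the log2 fold change was 0.52 ± 0.102 (adjusted p = 0.00068). mt-Co1, which encodes the catalytic core of complex IV, had the highest median level per kilobase of vehicle libraries in every tissue. It had 2350, 2913 and 3380 CPM in vehicle and 3327, 4035 and 4422 CPM in β-NMN libraries. The highest vehicle library (replicate 1) lay above the lowest β-NMN library (replicate 6), but the gene was called higher (0.46 ± 0.106 on the log2 scale, adjusted p = 0.002).

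The remaining genes of complexes IV and V had few counts. mt-Co3 (0.80 ± 0.19, adjusted p = 0.0027), mt-Atp6 (0.77 ± 0.187, adjusted p = 0.003) and mt-Co2 (0.60 ± 0.204, adjusted p = 0.023) were called higher. mt-Atp8, with 3 to 40 counts per library, was not (0.39 ± 0.497, adjusted p = 0.54). For mt-Co2, mt-Atp6 and mt-Co3, reads cannot be told apart from those of the nuclear copies Gm28661, Gm10925 and Gm28437. In vehicle and β-NMN libraries the mean CPM was 6.21 and 9.86 for Gm28661, 4.39 and 6.91 for Gm10925, and 2.85 and 4.73 for Gm28437. Of these copies only Gm28661 separated the groups without overlap.

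The rRNA genes were not called. mt-Rnr1, the small ribosomal subunit RNA, had 283, 299 and 446 CPM in vehicle and 196, 264 and 445 CPM in β-NMN libraries. mt-Rnr2, the large subunit RNA, had 436, 475 and 797 CPM in vehicle and 271, 361 and 753 CPM in β-NMN libraries. The groups overlapped for both, and the log2 fold changes were -0.19 ± 0.178 (adjusted p = 0.41) and -0.33 ± 0.229 (adjusted p = 0.25). In both genes the highest β-NMN value belonged to replicate 4 and the highest vehicle value to replicate 1. Without β-NMN replicate 4, mt-Rnr2 was called lower at -0.53 (adjusted p = 0.026) and mt-Rnr1 had -0.32 (adjusted p = 0.078). Without vehicle replicate 1 they had -0.16 (adjusted p = 0.57) and -0.048 (adjusted p = 0.83). Leaving out β-NMN replicate 1 gave -0.21 for mt-Rnr2 and -0.077 for mt-Rnr1, and leaving out β-NMN replicate 3 gave -0.21 and -0.097. mt-Tp had 6.83, 7.83 and 8.48 CPM in vehicle and 10.0, 11.4 and 13.4 CPM in β-NMN libraries, without overlap, and was called higher at 0.55 ± 0.0993 on the log2 scale (adjusted p = 0.00034).

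**Figure D3:**
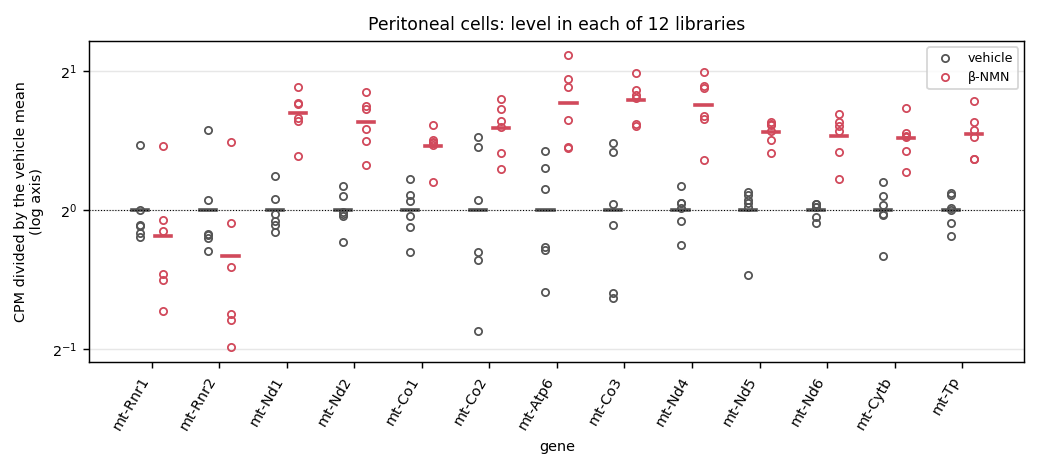
Level of 12 of the tested genes and mt-Tp in each of the 12 peritoneal libraries, as CPM divided by the vehicle mean on a log axis (points, libraries; bars, group means). The 6 β-NMN libraries lie above the 6 vehicle libraries for mt-Nd1, mt-Nd2, mt-Atp6, mt-Co3, mt-Nd4, mt-Nd5, mt-Nd6, mt-Cytb and mt-Tp, and overlap them for mt-Co1, mt-Co2 and both rRNA genes.

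By depth the peritoneal libraries fell into 7 with up to 53319385 counts and 5 with at least 90571560. Among the 7, 7 protein-coding genes were called higher, where 13.2% of 15198 genes tested were called higher and 14.7% lower. Among the 5, 8 were called higher, where 13.9% of 18730 genes tested were called higher and 16.6% lower. The genes called over all libraries but not within the 7 were mt-Co1 (log2 fold change 0.46, adjusted p = 0.067), mt-Co2, mt-Co3 and mt-Nd4l, and those not called within the 5 were mt-Co2, mt-Atp6 and mt-Nd4l. mt-Rnr2 was called lower among the 5 deep libraries (-0.57, adjusted p = 0.020). mt-Nd1, mt-Nd2, mt-Nd4, mt-Nd5, mt-Nd6 and mt-Cytb were called higher in both depth classes and when any 1 library was left out.

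The proportions among the protein-coding genes moved less than their sum. mt-Co1 made up 57.2% to 59.5% of the protein-coding counts in vehicle and 55% to 58.3% in β-NMN libraries. mt-Nd1 made up 9.03% to 10.4% and 10.3% to 11%, and mt-Nd4 4.97% to 5.37% and 5.49% to 6.5%. mt-Cytb made up 12.1% to 13% and 11.8% to 12.9%.

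The summed marker genes of several cell types moved with treatment. In bulk RNA this does not tell a change in cell numbers from a change in RNA per cell. The sum of 6 neutrophil genes was 489 to 990 CPM in vehicle and 334 to 467 CPM in β-NMN libraries, and that of 5 macrophage genes 1902 to 2570 and 3182 to 3695 CPM. The sum of 5 erythroid genes was 2.91 to 38.8 and 52.5 to 133 CPM, and that of 3 fibroblast genes 44.8 to 687 and 7.48 to 43.9 CPM. That of 3 T cell genes was 2.65 to 7.85 and 0.838 to 2.10 CPM. The 3 alveolar type 1 genes summed to 6.19 to 12.97 and 15.2 to 17.1 CPM, and the 3 airway genes to 2.32 to 5.39 and 0.484 to 2.12 CPM. Each of these sums had no overlap between the groups, and those of the other 6 lists overlapped. Every listed gene of the macrophage, erythroid, fibroblast and T cell lists had counts in all 12 libraries, as did the neutrophil genes in all vehicle libraries and 5 of 6 of them in all β-NMN libraries. Their part in the levels of the mitochondrial genes was not tested.

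Nuclear genes of the same complexes were also mostly higher in peritoneal cells. Of 74 nuclear subunits of complexes I, III, IV and V, 73 were tested. Of these, 45 were called higher and 1 lower, beside 23.7% and 27.9% of all genes tested. The median log2 fold change of the subunits was 0.34, beside -0.022 over all genes. By complex, 24 of 36 subunits of complex I, 5 of 9 of complex III, 7 of 13 tested of complex IV and 9 of 15 of complex V were called higher. Ndufa4, a complex IV subunit, rose from 7.9 to 12.5 CPM in vehicle to 15.8 to 22.8 CPM in β-NMN libraries (log2 fold change 1.05 ± 0.124, adjusted p = 8e-06). The complex I subunits Ndufa10 (0.53, adjusted p = 0.00014) and Ndufb4 (0.63, adjusted p = 0.00015) rose as well. Among the 7 libraries with fewer counts 7 of 72 nuclear subunits tested were called higher, no larger a share than the 13.2% of all genes. In that class 57 of the 72 had a log2 fold change above 0. Among the 5 deep libraries 53 of 73 were called higher, beside 13.9% of all genes.

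Genes that keep and express the mitochondrial genome went in both directions. Of 44 such nuclear genes (polymerases, transcription factors, RNA-processing enzymes and coactivators), 43 were tested, 16 were called higher and 12 lower, with a median log2 fold change of -0.004. Over all genes tested 23.7% were called higher and 27.9% lower, so the count of lower calls was at the background. Rnaseh1, which removes RNA primers from mitochondrial DNA, rose from 9.05 to 12.5 CPM in vehicle to 21.7 to 29.3 CPM in β-NMN libraries (1.18 ± 0.108, adjusted p = 7.7e-07). Pnpt1, a mitochondrial RNA-degrading enzyme, rose (0.65, adjusted p = 4.7e-05). Esrra, a nuclear receptor that activates respiratory chain genes, fell by 0.89 on the log2 scale, from 65.3 to 88.4 CPM to 34.3 to 53.2 CPM (adjusted p = 9.9e-06).

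The genes outside the mitochondrial genome whose log2 CPM followed the summed protein-coding mitochondrial counts most closely over the 12 peritoneal libraries were Relch, 1700060J05Rik and Cd200r1, with Pearson's r of 0.97 each among 14969 genes compared. Within vehicle libraries r was 0.89, 0.89 and 0.83, and within β-NMN libraries 0.93, 0.90 and 0.94 (n = 6 each). These libraries share the treatment difference, which raises r over all 12.

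In CLP hearts the same test called 0% of 16245 genes (1837 at an unadjusted p below 0.05), and 0 of the 16 mitochondrial genes tested, with 0 at an unadjusted p below 0.05. DESeq2, which called 1.74% of the genes, and limma-voom, which called 0.0185%, called 0 of the mitochondrial genes too. None of these 16 genes separated the groups without overlap, where 23.1% of all genes tested did. mt-Co1 had 92798, 38117 and 95038 CPM in the vehicle hearts 1, 2 and 3, and 71298, 84771 and 97641 CPM in the β-NMN hearts. Vehicle heart 2 was the lowest of the 6, and the other 5 values overlapped. Vehicle heart 2 was also the lowest for mt-Cytb, with 37442, 19606 and 37365 CPM in vehicle and 31107, 36561 and 39562 CPM in β-NMN hearts. The rRNA gene mt-Rnr2 had 6881, 2680 and 11849 CPM in vehicle and 10216, 8430 and 9331 CPM in β-NMN hearts, and mt-Rnr1 3199, 994 and 4755 and 4703, 3521 and 3676 CPM.

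All 11 tested protein-coding genes had log2 fold changes above 0 in hearts, from 0.094 for mt-Co2 to 0.46 for mt-Nd3, with a median of 0.14 and adjusted p of at least 0.54. mt-Nd1 had 0.14, mt-Nd2 0.14, mt-Co1 0.17, mt-Atp6 0.13, mt-Co3 0.11, mt-Nd4 0.19, mt-Nd5 0.11, mt-Nd6 0.17 and mt-Cytb 0.18. The SE of each was between 0.334 and 0.51, larger than the fold change except for mt-Nd3. The approximate 95% interval of mt-Co1 ran from -0.83 to 1.17. Without vehicle heart 2, 10 of these 11 genes had a log2 fold change below 0, for example -0.16 for mt-Co1, -0.10 for mt-Nd1 and -0.073 for mt-Cytb, and the rRNA genes went from 0.41 and 0.39 to -0.011 and -0.013. Other hearts turned single genes too. Without β-NMN heart 2, mt-Co2 had -0.058, mt-Atp6 -0.068 and mt-Co3 -0.19, and without β-NMN heart 3, mt-Nd5 had -0.12. The mean mitochondrial share was higher by 1.27 percentage points after β-NMN with vehicle heart 2 and lower by 1.88 percentage points without it. The tRNA genes tested gave 0.28 for mt-Tp, 0.15 for mt-Tl1 and -0.12 for mt-Tc.

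The cardiomyocyte markers moved with the mitochondrial genes in this library. The 8 genes summed to 54007, 31551 and 54315 CPM in the vehicle hearts 1, 2 and 3 and to 56834 to 62724 CPM in the β-NMN hearts, and the summed fibroblast genes were 861 CPM in vehicle heart 2 and 311 to 531 CPM in the other hearts. Of the 74 nuclear subunits, 0 were called in hearts and 71 had a log2 fold change above 0 (median 0.27, beside -0.0058 over all genes). The smallest p were those of Ndufa12 (0.42, adjusted p = 0.45), Ndufs7 (0.50, adjusted p = 0.46) and Ndufb3 (0.40, adjusted p = 0.46), for which vehicle heart 2 was the lowest library. Without it these had 0.23, 0.26 and 0.19, and of the 74 subunits 52 had a value above 0, with a median of 0.055. Of the genes for mitochondrial DNA upkeep 0 were called, with the smallest p for Twnk, the mitochondrial DNA helicase (0.65), Mgme1, an exonuclease (0.63), and the coactivator gene Pprc1 (-0.71), each with an adjusted p of 0.44. Their order in the libraries also placed vehicle heart 2 at the end, as the lowest for Twnk and Mgme1 and the highest for Pprc1, and without it they had 0.45, 0.38 and -0.29.

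In CLP lungs the test called 0% of 17008 genes (301 at an unadjusted p below 0.05), and 0 of 10 mitochondrial genes tested (0 at an unadjusted p below 0.05, and 0 by DESeq2 and limma-voom, which called 0.0529% and 0.0412% of all genes). The 6 genes with few counts were not tested in lungs. mt-Co1 had 2005, 188 and 1784 CPM in the vehicle lungs and 1502, 2245 and 2342 CPM in the β-NMN lungs. Vehicle lung 2, with 1301 counts against 24656 to 63851 in the other lungs, lay far below them. mt-Nd1 had 669, 338 and 505 CPM in vehicle and 706, 686 and 731 CPM in β-NMN lungs. For this gene the groups did not overlap, with β-NMN higher, and it was the only one of the 10 for which they did not, where 8.21% of all genes tested separated the groups in either direction.

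Vehicle lung 2 differed from the others gene by gene rather than as a whole. Its mt-Cytb, at 368 CPM, was below the 1041 to 1315 CPM of the other lungs, and its mt-Nd4, at 241 CPM, below 359 to 537 CPM. Its mt-Nd2 (619 CPM) and mt-Nd5 (663 CPM) were the highest of the 6 lungs. Its rRNA genes were also highest, with 1626 CPM for mt-Rnr2 against 272 to 663 CPM, and 932 CPM for mt-Rnr1 against 189 to 492 CPM. The ratio of protein-coding to rRNA counts was 1.05 in this lung and 4.27 to 11.2 in the other 5. mt-Co1 made up 7.01% of its protein-coding counts and 30.4% to 37.9% of those in the other lungs. It also had the fewest total counts, 8915366, and its part in the values below was not tested except by leaving it out.

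With all 6 lungs, the log2 fold changes were 0.49 for mt-Nd1, 0.037 for mt-Nd2 and 0.61 for mt-Co1 (approximate 95% interval -0.88 to 2.11). They were 0.48 for mt-Nd4, -0.18 for mt-Nd5, -0.029 for mt-Nd6 and 0.52 for mt-Cytb, with adjusted p of at least 0.97 throughout. mt-Tp had 0.39. Those of mt-Rnr1 and mt-Rnr2 were -0.60 and -0.61. Without vehicle lung 2 they turned to 0.40 and 0.51, and that of mt-Co1 went from 0.61 to 0.099. In the same fit mt-Cytb had 0.15, mt-Nd1 0.27, mt-Nd4 0.27, mt-Tp 0.23, mt-Nd2 0.19 and mt-Nd5 0.037. The mean mitochondrial share was higher after β-NMN by 0.152 percentage points with this lung and by 0.0857 without it. Of the nuclear subunits 0 were called in lungs and 60 of 74 had a log2 fold change below 0 (median -0.27). Without vehicle lung 2 this turned, with 25 of 74 below 0 and a median of 0.050. The smallest p were those of Cox7a1 (-1.32), Ndufa2 (-1.48) and Atp5e (-1.31), each with an adjusted p of 0.97, and without vehicle lung 2 Ndufa2 and Atp5e had 0.16 and 0.14. Of the upkeep genes 0 were called, with the smallest p for Ppargc1b (-2.18), Top1mt (-0.71) and Pprc1 (-0.39). Without vehicle lung 2 Ppargc1b had 0.092 and Top1mt -0.13, and Cox7a1 of the subunits had -0.66.

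**Figure D4:**
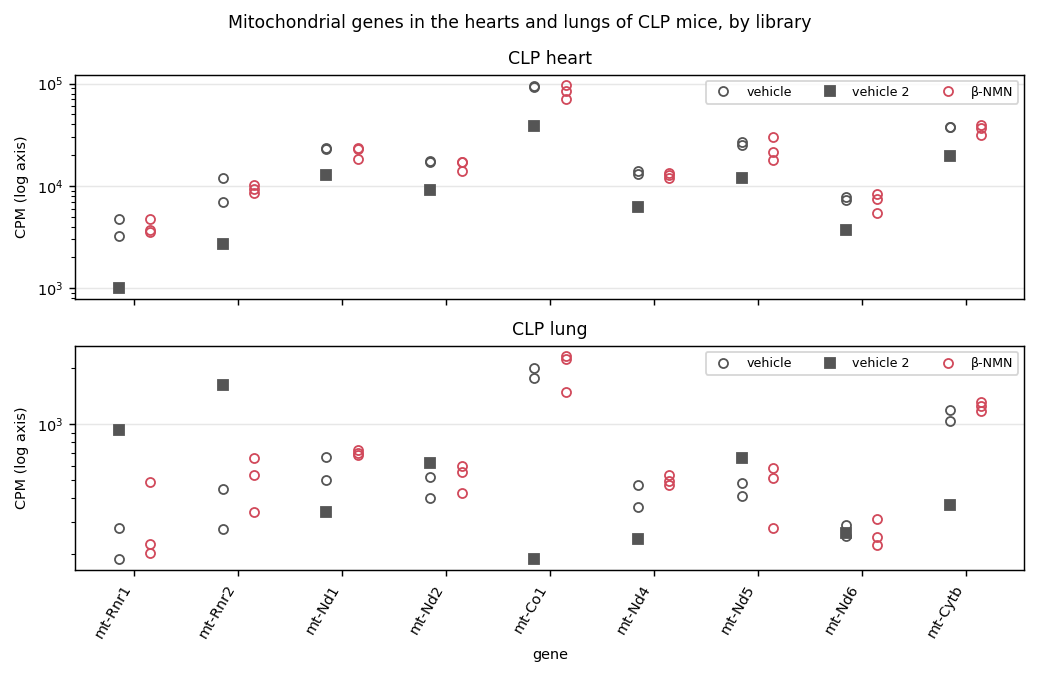
CPM of the 2 rRNA genes and of the 7 protein-coding genes with abundant counts in the 6 hearts (above) and 6 lungs (below), on log axes, with the library of vehicle mouse 2 as a filled square. In hearts this library is the lowest for each gene shown, and in lungs it is the lowest for mt-Nd1, mt-Co1, mt-Nd4 and mt-Cytb and the highest for both rRNA genes, mt-Nd2 and mt-Nd5.

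**Figure D5:**
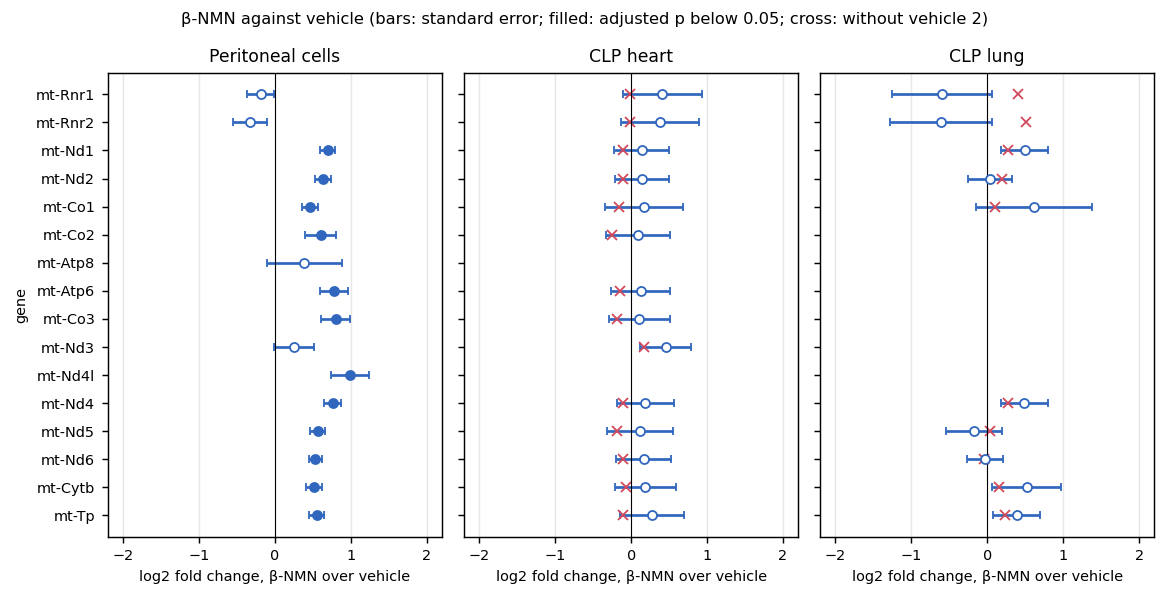
Log2 fold change of β-NMN over vehicle for each gene tested in the 3 tissues (circles, all libraries, with the SE as bars; filled, adjusted p below 0.05; crosses, without vehicle replicate 2). In peritoneal cells 11 protein-coding genes and mt-Tp are filled, from 0.46 to 0.98, and in hearts and lungs none is.

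Heart was compared with lung in a single fit over the 12 CLP libraries, averaging over treatments, and 28.9% of 18318 genes were called higher and 35.9% lower in heart. Scaled on total counts, 2761 of 12859 called genes were higher in heart, against 5294 of 11873 with TMM. All 15 mitochondrial genes tested were called higher in heart, and 11 of 11 protein-coding genes were under either scaling. Among these, mt-Co2, mt-Atp6, mt-Co3, mt-Nd3 and mt-Tc did not pass the filter on low counts in lungs alone. They had 1 to 2, 0 to 4, 0 to 3, 4 to 7 and 0 to 5 counts per lung. These genes entered the fit through their heart counts, so their calls give no separate support. Each heart had more CPM than each lung for all of the 7 abundant protein-coding genes. The log2 fold change was 6.26 ± 0.621 for mt-Co1 (adjusted p = 3.8e-06), 6.20 for mt-Nd5, 5.78 for mt-Nd1, 5.67 for mt-Cytb, 5.56 for mt-Nd2, 5.48 for mt-Nd4 and 5.34 for mt-Nd6. mt-Rnr1 (3.89 ± 0.493, adjusted p = 2.9e-05) and mt-Rnr2 (4.40 ± 0.504, adjusted p = 1.3e-05) differed by smaller values, as did mt-Tp (4.64), and mt-Tc had 5.25. Of the genes with few counts, mt-Co3 had 5.49, mt-Co2 4.97, mt-Atp6 4.50 and mt-Nd3 3.57, and mt-Nd4l and mt-Atp8 were not tested. Leaving out both organs of vehicle mouse 2 kept all 11 tested protein-coding genes higher in heart.

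Most nuclear subunits were also higher in heart, with a median difference below that of each of the 7 abundant protein-coding mitochondrial genes. Of 74, 69 were called higher and 1 lower in heart, beside 28.9% and 35.9% of all genes tested. The median log2 fold change of the 74 was 2.41, beside -0.14 over all genes. For the 7 abundant mitochondrial genes the values ran from 5.34 to 6.26. The smallest p were those of the muscle forms Cox6a2 (6.29) and Cox8b (7.04) of complex IV and of the complex I subunit Ndufs1 (4.48). Of 43 upkeep genes tested, 32 were called higher and 5 lower, beside 28.9% and 35.9% of all genes. The smallest p among them were those of Fastk (2.83), Tbrg4 (2.28), both of a family of mitochondrial RNA-binding proteins, and Ppargc1a (4.93), a coactivator of mitochondrial biogenesis.

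The effect of β-NMN was also compared between the organs by an interaction term. The test called 0% of 18318 genes and 0 of 15 mitochondrial genes (0 of these at an unadjusted p below 0.05, where 797 of all genes were, and 0 by DESeq2, which called 0.0764% of all genes). For mt-Co1 the effect in heart minus that in lung was -0.43 ± 0.989 on the log2 scale, and for mt-Rnr2 it was 0.93 ± 0.879, with adjusted p of 0.99 and 0.96. Without both organs of vehicle mouse 2 the value for mt-Rnr2 was -0.49. The intervals of these differences were wide, from -2.37 to 1.51 for mt-Co1.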

How the data were processed

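RNA from 12 peritoneal cell samples, 6 hearts and 6 lungs was sequenced as poly(A) libraries. The authors deposited 2 tables of raw counts per gene symbol, without normalization. Per the processing notes and the methods, reads were aligned to mm10 with STAR (version 2.7.3a in the processing notes) and counted with featureCounts 2.0.0. Annotation, strand setting and treatment of multi-mapping reads: not given in the sources used here. Each library is a separate mouse, except that heart and lung come from the same animals, and a β-NMN heart whose title repeats replicate 3 was taken as replicate 2 by its mouse code.

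Counts were analysed with edgeR 4.0.16 under R 4.3.3 (filterByExpr with a minimum count of 10, TMM factors, legacy quasi-likelihood fit), each tissue alone. Heart against lung and the interaction were fitted over the 12 CLP libraries as group means. Adjusted p are Benjamini-Hochberg values over all genes tested, and a gene is called below 0.05. Shares, ratios and CPM per kilobase are descriptions without a test. SE are the log2 fold change over the square root of F. The 95% intervals are 1.96 SE either side, a normal approximation that is too narrow for groups of 3. Gene positions and the search for shared stretches of 150 bases used GENCODE M21 transcripts, so unannotated nuclear copies were not searched. Genes named are all protein-coding and rRNA genes, the tRNA genes that passed the filter, the 3 smallest p of each nuclear list and the 3 genes most like the summed protein-coding counts. The members and lists were chosen with earlier results of these data known. Alternatives were other scalings and tests (DESeq2 1.42.0, limma 3.58.1), no filter, blocks, both organs in one fit and leaving out each library. The tests were checked on simulated counts. No libraries of a group agreed within sampling noise (chi-square per degree of freedom at least 22.4). Depth was 8915366 to 112456050 counts per library.

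Heart and lung of the same number and treatment came from 1 mouse per the labels (correlation of their deviations 0.064 to 0.17), and the mouse was used as a block in an alternative fit.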

Additional observations from a re-analysis of the deposited data

Results flagged for a closer look

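In 42 sets of 6 peritoneal libraries, chance alone flags about 1 in 20, and 6 held a library far from the other 5. In vehicle replicate 1, the CPM of mt-Rnr1 (446) and mt-Rnr2 (797) and the share of counts on rRNA genes (0.117%) lay above the other vehicle libraries. In vehicle replicate 3, the CPM of mt-Nd5 (263) lay below them. Among β-NMN libraries, replicate 4 had a share on rRNA genes of 0.125%, above the others, and replicate 6 a share on protein-coding genes of 0.526%, below the others.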

How the results depend on the processing

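The 11 protein-coding genes called higher in peritoneal cells stayed at 11 when any 1 library was left out and under the other scalings, tests, the replicate block and depth as a term, and were 10 without the filter. Within depth classes, chosen after seeing the data, 7 were called among the 7 shallower libraries, where 8 upkeep genes were called higher and 5 lower, 7 nuclear subunits higher and 4244 genes in all. Among the 5 deeper libraries 1 rRNA gene was called, 8 upkeep genes higher and 6 lower, 0 nuclear subunits lower, and mt-Nd3 had -0.015. Without the filter 0 nuclear subunits were lower. Leaving out a library gave 0 to 1 rRNA genes and 0 to 1 nuclear subunits lower.

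In hearts 3 genes were called without the filter, 283 by DESeq2, 3 by limma-voom and 0 to 5 when 1 library was left out, in lungs 9 by DESeq2 and 7 by limma-voom, and for the interaction 2 without the filter and 14 by DESeq2. In hearts and lungs 0 mitochondrial genes were called under any of these. In hearts limma-voom with quality weights gave -0.12 for mt-Nd1, -0.11 for mt-Nd2, -0.17 for mt-Co1, -0.17 for mt-Co2, -0.20 for mt-Atp6, -0.15 for mt-Co3, -0.0696 for mt-Nd4, -0.26 for mt-Nd5, -0.13 for mt-Nd6, -0.086 for mt-Cytb, -0.0739 for mt-Tp and -0.41 for mt-Tl1. In lungs mt-Nd5 had 0.018 and mt-Nd6 0.10 on total counts, and limma-voom gave 0.056 for mt-Nd5 and 0.36 for mt-Rnr2. The interaction of mt-Rnr2 was -0.49 without vehicle mouse 2.

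Leaving out 1 library gave these ranges in hearts: mt-Nd1 -0.10 to 0.28, mt-Nd2 -0.11 to 0.31, mt-Co1 -0.16 to 0.37, mt-Co2 -0.26 to 0.32, mt-Atp6 -0.14 to 0.49, mt-Co3 -0.19 to 0.28, mt-Nd4 -0.11 to 0.38, mt-Nd5 -0.18 to 0.32, mt-Nd6 -0.11 to 0.36, mt-Cytb -0.073 to 0.33, mt-Rnr1 -0.011 to 0.92, mt-Rnr2 -0.013 to 0.97, mt-Tp -0.11 to 0.62, mt-Tc -0.51 to 0.39, mt-Tl1 -0.49 to 0.49, and the share difference -1.88 to 2.95 percentage points. In lungs they were mt-Nd2 -0.090 to 0.19, mt-Nd5 -0.38 to 0.085, mt-Nd6 -0.17 to 0.077, mt-Rnr1 -1.11 to 0.40, mt-Rnr2 -0.99 to 0.51, Ndufa2 -1.93 to 0.16, Atp5e -1.69 to 0.14 and Ppargc1b -2.94 to 0.092, and for the interaction mt-Co1 -0.86 to 0.094 and mt-Rnr2 -0.086 to 1.49. Between heart and lung, upkeep genes called lower numbered 3 with DESeq2 size factors, 9 on total counts, 3 on nuclear scaling, 2 without the filter, 3 without mouse 2 and 3 to 5 when 1 library was left out. Nuclear subunits lower numbered 2 on total counts, and 8 tRNA genes were called without the filter. Total counts moved the median of all genes by -0.14 in hearts, 0.12 in lungs and -0.67 between the organs and -0.25 for the interaction. The cause of these changes was not tested. Vehicle and β-NMN libraries of a number came from different mice, and in no tissue did every same-numbered pair correlate above 0.1 (-0.17 to 0.13 in peritoneal cells, 0.073 to 0.24 in hearts, -0.52 to 0.30 in lungs), so the numbers were not taken as a pairing. The replicate block kept 11 protein-coding genes higher in peritoneal cells and 0 in hearts and lungs. Blocking on the mouse kept 11 higher in heart than in lung.

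These data limit the organ comparisons to 3 mice a group, and for genes with stretches shared with nuclear copies, mt-Co1 and mt-Nd4 in part, the genome a read came from is unknown.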
